A study of Mus musculus and Ictidomys tridecemlineatus with 36 samples.

Results

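The replication-dependent histone genes of the mouse were taken as every GENCODE M21 protein-coding gene whose symbol begins with Hist1h, Hist2h, Hist3h or Hist4h. The rule gave 67 of 21938 protein-coding genes, and none of them was chosen for a CUT&RUN value. They fall into 4 clusters: Hist1 on chromosome 13 with 54 genes, Hist2 on chromosome 3 with 10, Hist3 on chromosome 11 with 2, and Hist4 on chromosome 6 with 1. By protein, 6 encode the linker histone H1, 18 encode H2A, 18 encode H2B, 12 encode H3 and 13 encode H4. For each gene, peaks of 5 mouse retina peak lists were sought within 1 kb of the annotated transcription start site (TSS).

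These genes supply the histones that package newly copied DNA, and their transcription is tied to S phase of the cell cycle. Most are short and lack introns, and their mRNAs end in a conserved stem-loop instead of a poly(A) tail, which is bound by the protein Slbp. H3K4me3 marks active promoters, H3K27ac marks active promoters and enhancers, and H3K4me1 marks enhancers and promoter flanks, while Otx2 and Neurod1 are transcription factors of photoreceptor precursors and neurogenic progenitors.

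The study compared chromatin in developing retinas of the 13-lined ground squirrel (13LGS), a cone-dominant rodent, with the rod-dominant mouse. The mouse samples used here were P2 retinas, with no genotype, strain or treatment given in the labels, from 2 biological replicates that each pooled retinas of 3 individuals, with 385000 nuclei per reaction. There were 2 libraries each for H3K4me3, H3K27ac, H3K4me1 and the IgG control, 8 for Otx2, made with antibodies from R&D Systems or Atlas Antibodies, and 4 for Neurod1. P2 retina is a mixture of late-stage progenitors, which still divide, and newborn neurons, so fewer cells carrying a mark and less of the mark per cell cannot be told apart.

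Each deposited list was called on all libraries of a target together against IgG, and gives each peak a fold enrichment over IgG at its summit and a −log10 q-value. There was therefore 1 value per peak, no spread between replicates and no test of any difference below, and the read depth behind the lists is unknown. The lists held 14069 H3K4me3, 62930 H3K27ac, 135798 H3K4me1, 29115 Otx2 and 4744 Neurod1 peaks. As a check of the tissue, 11 of 12 retinal genes had H3K4me3, up to 159-fold at *Rax*, a determinant of the eye field, and 8 had H3K27ac. Of 11 genes of liver, muscle, B cells and red blood cells, 3 had H3K4me3, at 5.56- to 10.8-fold, and 0 had H3K27ac.

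The stem-loop was read from the RefSeq copy of the GRCm38 genome as a check of membership that the symbol rule did not use. It was searched as a perfect 6-base stem that begins with GG around a 4-base loop, within 100 bases after the stop codon. It was present in 65 of 67 histone genes. Of the 21752 protein-coding genes with an annotated stop codon, 150 (0.690%) had it, a count that includes those 65. In the histone genes it began 22 to 59 bases after the stop codon, with a median of 31.0. The 8 forms are shown in the DNA of the coding strand with the loop in capitals, because their stems separate H4 from the other families.
H1, H2A, H2B and H3, 41 genes (for example *Hist3h2ba*, chr11:58949349-58949364, plus strand): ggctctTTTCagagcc
H1, H2A, H2B and H3, 9 genes (*Hist1h2bl*, chr13:21715718-21715733, minus strand): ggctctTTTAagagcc
H4, 8 genes (*Hist1h4k*, chr13:21750150-21750165, minus strand): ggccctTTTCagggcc
H4, 2 genes (*Hist1h4i*, chr13:22040966-22040981, minus strand): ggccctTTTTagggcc
H4, 2 genes (*Hist1h4j*, chr13:21735437-21735452, plus strand): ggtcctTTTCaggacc
H4, *Hist1h4a* (chr13:23760800-23760815, minus strand): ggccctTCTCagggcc
H3, *Hist1h3g* (chr13:23535889-23535904, plus strand): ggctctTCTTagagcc
H2A, *Hist2h2ac* (chr3:96220418-96220433, minus strand): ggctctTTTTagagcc

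None of the 4 forms found in the 13 H4 genes was found in a gene of another family. The genes in which this pattern was not found were *Hist1h2an*, an H2A gene, and *Hist2h2be*, an H2B gene.

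The 54 Hist1 genes form 4 runs when a gap of over 100 kb between neighbouring starts separates runs. Run 1 holds 18 genes in 122 kb, run 2 holds 5 in 8.51 kb, run 3 holds 29 in 233 kb and run 4 holds 2 in 1.08 kb, and the gaps between them are 198, 1487 and 169 kb. Peaks followed the genes in runs 1 to 3 (the map of the clusters). H3K4me3 peaks covered 8.92% of run 1, 49.3% of the compact run 2 and 14.2% of run 3. No peak of any target lay in run 4, which holds the testis-type genes *Hist1h2ba* and *Hist1h2aa*. Run 2 had no H3K27ac peak.

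**Figure D1:**
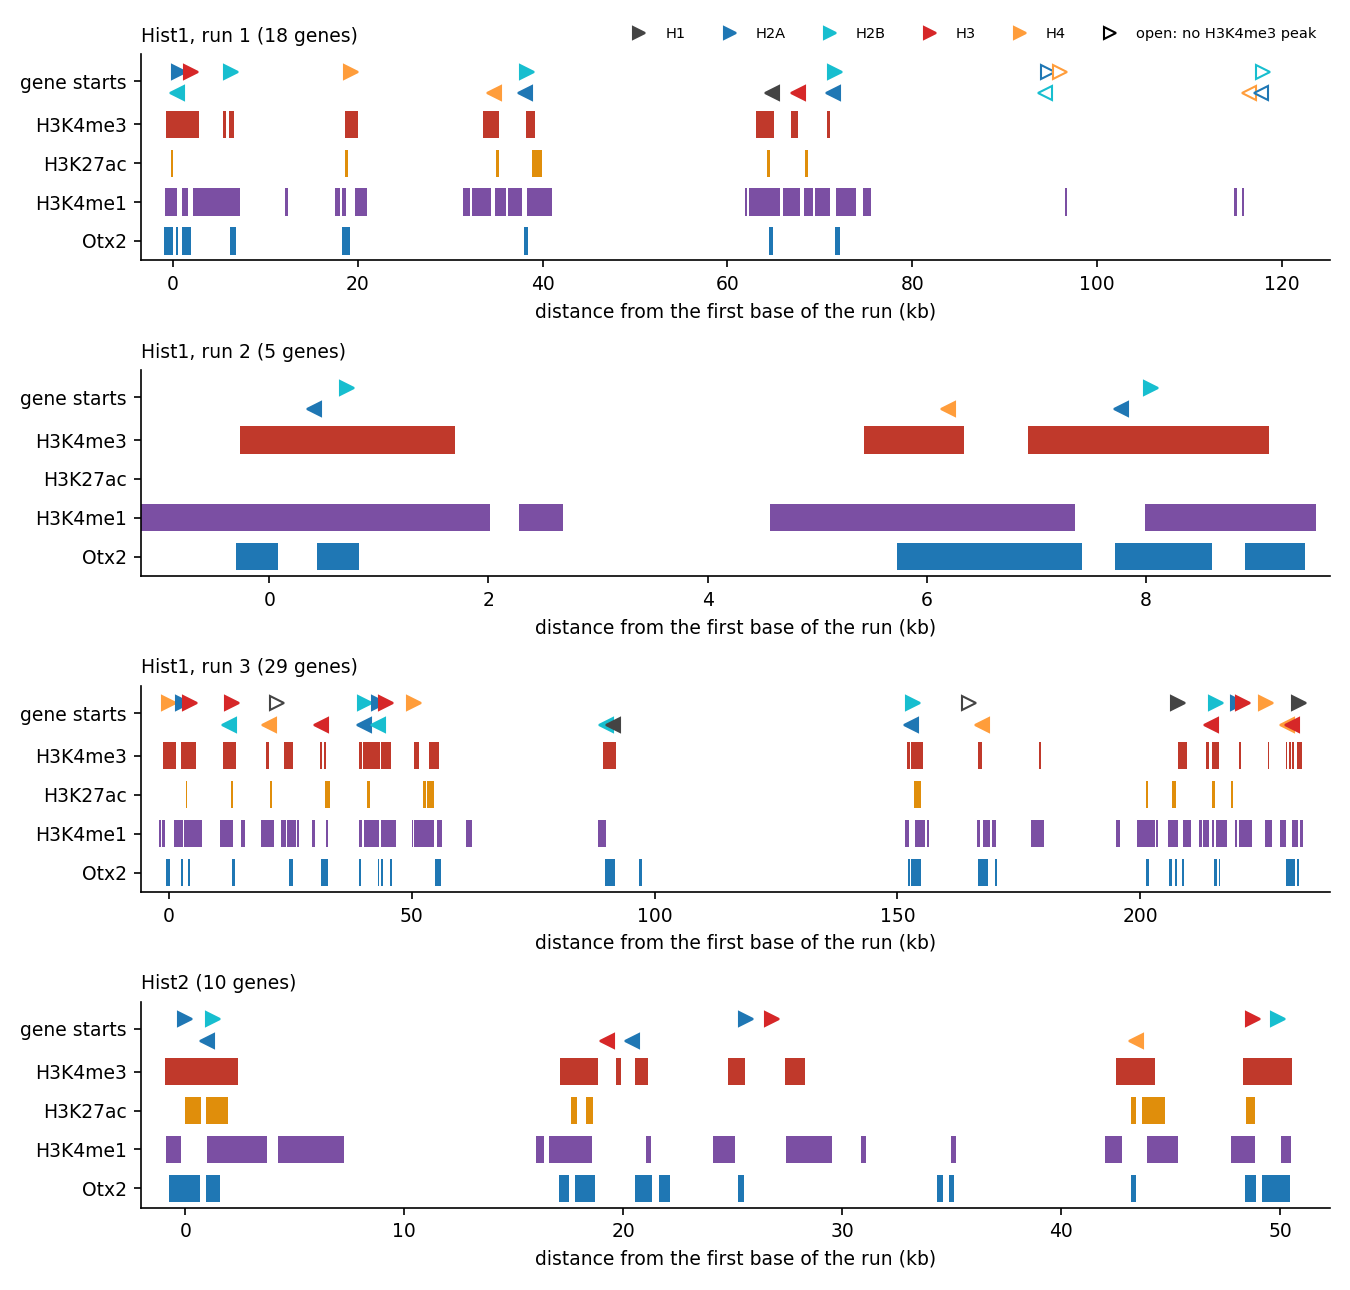
Peaks along the first 3 runs of the Hist1 cluster and along the Hist2 cluster, plotted against distance in kb from the first base of the run; triangles are gene starts pointing in the direction of transcription and coloured by histone family, and boxes are peaks of the 4 targets that had any. Open triangles are the genes without an H3K4me3 peak within 1 kb, 6 of which sit together at the right end of run 1 and 2 in run 3.

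H3K4me3 was found at 57 of the 67 histone genes (85.1%), against 52.7% of all protein-coding genes. H3K27ac was found at 31 (46.3%), against 15.8%. H3K4me1 was found at 58 (86.6%), against 57.6%. Otx2 was found at 49 (73.1%), against 47.0%. Neurod1 was found at 0, against 4.23%. The 4 present targets were thus all at a higher share of histone genes than of all genes.

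Because the genes are packed closely, these counts are not of independent places. Another histone gene started within 2 kb of 51 of the 67 (76.1%), whereas 14.3% of all genes had another start that near. The 57 genes with H3K4me3 shared 46 peaks, of which 26 belonged to 1 gene, 15 to 2 genes and 5 to 3 or 4 genes. With overlapping windows counted once, 34 of 38 loci had H3K4me3, 21 had H3K27ac, 35 had H3K4me1 and 28 had Otx2.

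The shares also depended on how far down each list was read. With a −log10 q of at least 5 asked for, 56 histone genes (83.6%) kept H3K4me3, against 50.9% of all genes. Otx2 was then kept at 44 (65.7%), against 38.4%. When each list was limited to its 4744 most significant peaks, the length of the Neurod1 list, 8 histone genes (11.9%) kept H3K4me3, against 23.6% of all genes, and 7 (10.4%) kept Otx2, against 12.6%. Those 8 genes were 5 of Hist2, both Hist3 genes and the Hist4 gene, and none was in Hist1.

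The marks also overlapped. H3K4me3 and H3K27ac together were at 30 genes (44.8%), against 14.5% of all genes. H3K4me3 and Otx2 together were at 49 (73.1%), against 44.8%, and all of H3K4me3, H3K27ac and Otx2 were at 26 (38.8%), against 13.8%. H3K27ac without H3K4me3 was at 1 gene, *Hist1h1d*, and at 1.34% of all genes. That H3K27ac peak was shared with the neighbouring *Hist1h4f*, which had H3K4me3. Among genes that had H3K4me3, H3K27ac was at 30 of 57 histone genes (52.6%) and at 27.4% of all genes. Otx2 was at 49 of those 57 (86.0%), which is close to the 85.0% of all genes with H3K4me3, so the higher share of Otx2 at histone genes went with the higher share of H3K4me3. Otx2 without H3K4me3 was at 0 histone genes and at 2.19% of all genes, a small difference in count for 67 genes.

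**Figure D2:**
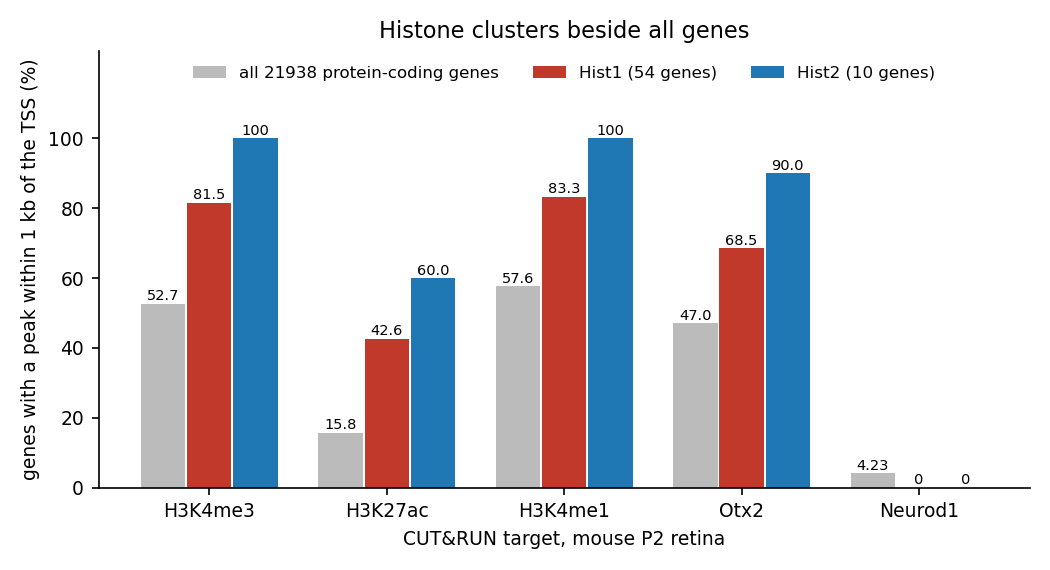
Percentage of genes with a peak within 1 kb of the TSS for each CUT&RUN target, for all 21938 protein-coding genes (grey), the 54 Hist1 genes (red) and the 10 Hist2 genes (blue). Hist1 stands at 81.5% and Hist2 at 100% for H3K4me3, both at 0 for Neurod1.

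By cluster, H3K4me3 was at 44 of 54 Hist1 genes (81.5%) and at all 10 Hist2, 2 Hist3 and 1 Hist4 genes. The size of the enrichment separated the clusters more than its presence did. Over all 11554 genes with H3K4me3 the highest fold among peaks reaching the window had a median of 17.6 and quartiles of 10.0 and 26.8. The histone genes had a median of 8.0, and 36 of 57 lay under the lower quartile. In Hist1 the median was 7.71 and 0 of 44 genes exceeded the all-gene median, whereas 5 of 10 Hist2 genes, both Hist3 genes and the Hist4 gene did. The values of those 5 Hist2 genes came from 2 shared peaks within the windows. The width of the peaks depended on how they were counted. Per gene, the best H3K4me3 peak had a median width of 1962 bases, against 1577 for all genes, but wide peaks were then counted for each gene they served. With each peak counted once, the 46 peaks at histone genes had a median width of 978 bases and a median fold of 7.60, against 1338 bases and 13.5-fold over all H3K4me3 peaks.

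In Hist1 the highest H3K4me3 was at *Hist1h1b*, a linker histone gene of run 1, at 17-fold in a peak of 1944 bases (−log10 q of 63.3). Next came *Hist1h2bl*, *Hist1h2ai* and *Hist1h3h*, an H2B, an H2A and an H3 gene under 1 peak of 3624 bases at 13.2-fold. The pair *Hist1h2ac* and *Hist1h2bc* had 12.3-fold. The linker histone gene *Hist1h1e* had 10.7-fold. The same peak was counted for *Hist1h2be*, whose annotated 5′ end lies 35.2 kb from its first codon and beside *Hist1h1e*. Within 1 kb of its first codon *Hist1h2be* had 15.2-fold H3K4me3, 4.75-fold H3K27ac and 3.87-fold Otx2. The lowest Hist1 genes with a peak were *Hist1h4b* at 3.37-fold, *Hist1h2bm* at 3.44-fold, *Hist1h3a* at 3.60-fold and *Hist1h4a* at 3.86-fold, 3 of which lie at the far end of run 3.

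**Figure D3:**
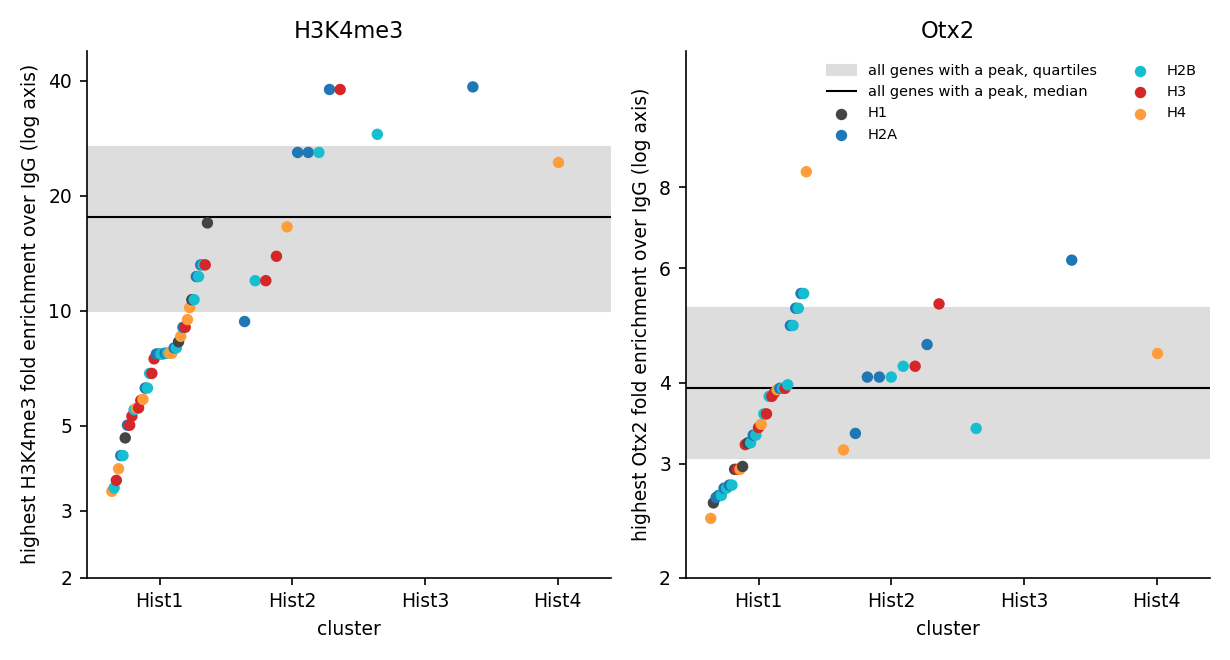
Highest fold enrichment over IgG among peaks that reach within 1 kb of the TSS, for H3K4me3 (left) and Otx2 (right), on log axes. Each point is a histone gene with a peak, coloured by family and ordered by value within its cluster. The grey band spans the quartiles of all genes with a peak and the black line is their median. For H3K4me3 all 44 Hist1 points lie under the line at 17.6, and for Otx2 *Hist1h4c* stands highest at 8.46.

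The Hist2 cluster lies at chr3:96219865-96270132 and its 10 genes had a median H3K4me3 of 21.3-fold. That median counts a 26-fold peak for 3 genes and a 38.0-fold peak for 2, and the highest peaks of the other 5 genes were at 9.38- to 16.6-fold, under the all-gene median. *Hist2h2ab*, *Hist2h2ac* and *Hist2h2be* shared a peak of 3373 bases at 26-fold, with 4.35-fold H3K27ac and 4.08-fold Otx2. *Hist2h4*, the H4 gene of the cluster, had 16.6-fold H3K4me3, 4.98-fold H3K27ac, the highest of the 67 genes, and 3.15-fold Otx2. *Hist2h3b* and *Hist2h2bb* shared 12-fold H3K4me3 and 4.24-fold Otx2, and *Hist2h3b* alone had H3K27ac, at 3.49-fold.

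The other 4 Hist2 genes are near copies of each other, an H3 and an H2A gene in each of 2 units that point in opposite directions. *Hist2h3c2* and *Hist2h2aa2* shared a peak of 251 bases at 38.0-fold, while *Hist2h3c1* had 13.9-fold and *Hist2h2aa1* had 9.38-fold. Otx2 was 5.29-fold at *Hist2h3c2*, 4.58-fold at *Hist2h2aa2* and 3.34-fold at *Hist2h2aa1*, with no peak at *Hist2h3c1*. Of these 4 only *Hist2h3c2* had H3K27ac, at 2.83-fold. No H3K4me3 peak covered any of the 4 starts. The share of 100-base words around the TSS that occur again in the genome was 71.7% for *Hist2h3c2*, 50.8% for *Hist2h2aa2*, 47.9% for *Hist2h2aa1* and 72.7% for *Hist2h3c1*, and its part in these values was not tested.

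The remaining clusters were small and strongly marked. In Hist3, *Hist3h2a* had 38.6-fold H3K4me3 over 3465 bases, the highest of the 67 genes, with 6.18-fold Otx2 and no H3K27ac. *Hist3h2ba* had 29.0-fold H3K4me3, 2.5-fold H3K27ac and 3.4-fold Otx2. *Hist4h4*, the only Hist4 gene, had 24.5-fold H3K4me3, 4.59-fold H3K27ac, 4.64-fold H3K4me1 and 4.44-fold Otx2.

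In all, 10 histone genes had no H3K4me3 peak, each of them in Hist1. Of these, 6 stand next to each other at the end of run 1, chr13:21810197-21833743 from the first start to the last: *Hist1h2bq*, *Hist1h2ao*, *Hist1h4m*, *Hist1h4n*, *Hist1h2ap* and *Hist1h2br*. They form an inverted repeat. The 235 bases between the starts of *Hist1h2ap* and *Hist1h2br* occur without a difference, as the reverse complement, between the starts of *Hist1h2bq* and *Hist1h2ao*, and the 200 bases before *Hist1h4m* equal those before *Hist1h4n*. In these 6 genes 80.7 to 100% of the 100-base words around the TSS occur again in the genome. The submitters removed reads of low mapping quality, and how far that emptied these windows was not tested. H3K4me1 was still listed at *Hist1h4m*, at 5.69-fold over 252 bases, and at *Hist1h4n*, at 5.85-fold over 220 bases.

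The other 4 genes without H3K4me3 had little repeated sequence. *Hist1h1t*, *Hist1h2ba* and *Hist1h2aa* encode the testis-specific H1, H2B and H2A, and had none of the 5 targets, with 0, 4.21 and 4.21% of words repeated. *Hist1h1d*, a linker histone gene, had 2.41-fold H3K27ac and 4.92-fold H3K4me1 but no H3K4me3 within 1 kb of its annotated start. Both peaks were shared with the neighbouring *Hist1h4f*, which had H3K4me3. Their summits lie at -1372 and -1421 bases from the *Hist1h1d* start, and at -242 and -193 bases from that of *Hist1h4f*. A further H3K4me1 peak, at 4.25-fold, was counted for *Hist1h1d* only. The annotated start of *Hist1h1d* lies 1.83 kb before its first codon. Within 1 kb of that codon 9.59-fold H3K4me3 and 3.01-fold Otx2 were listed and H3K27ac was not. With the window on the first codon, 58 of 67 histone genes had H3K4me3, and those without it were the 6 genes of the inverted repeat and the 3 testis-specific genes.

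Repeated sequence was common among the histone genes that did have H3K4me3 too, at a median of 11.6% of words, with a median of 0 over 65 comparison genes that are not in the 4 clusters. Without the 9 genes in which over 50% of words were repeated, 54 of 58 (93.1%) had H3K4me3. The 8 Hist1 genes with H3K4me3 and under 5% of words repeated had folds of 4.65 to 17 with a median of 8.03. These 8 values are not independent, since *Hist1h2be* and *Hist1h1e* share a peak and the 7.75-fold of *Hist1h4i* is the peak of the neighbouring *Hist1h2ag* and *Hist1h2bj*. The part of repeated sequence in the Hist1 values was not tested.

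**Figure D4:**
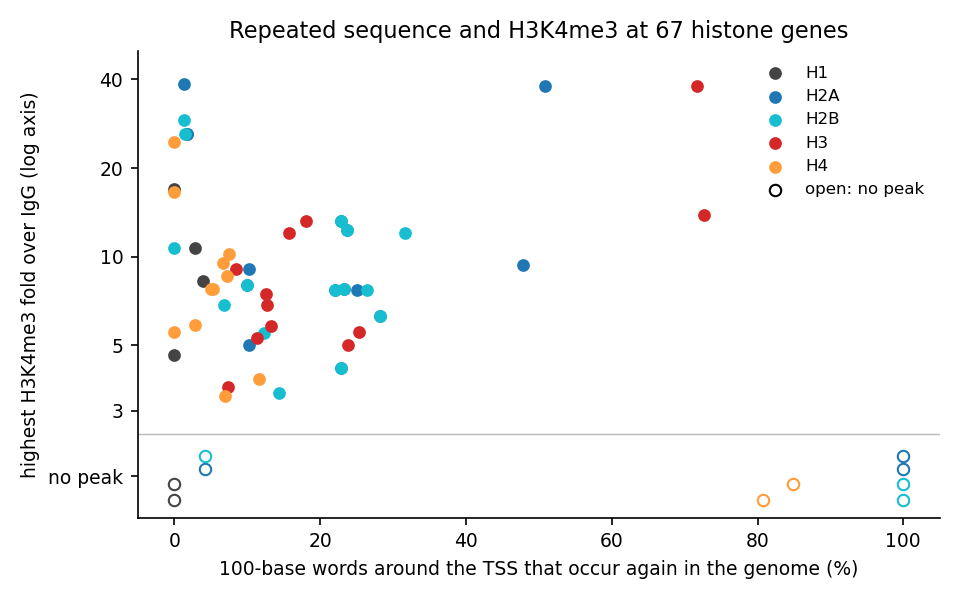
Highest H3K4me3 fold over IgG (log axis) against the percentage of 100-base words within 1 kb of the TSS that occur again in the genome, for the 67 histone genes coloured by family; open circles at the bottom are the 10 genes without a peak. Of the open circles, 6 stand at 80.7% or more and 4 stand under 5%.

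H3K27ac was at 23 of 54 Hist1 genes, 6 of 10 Hist2 genes, *Hist3h2ba* and *Hist4h4*. Its median fold was 3.06 at histone genes and 3.38 over all genes with a peak. In Hist1 the highest values were 4.17-fold at *Hist1h2ac* and *Hist1h2bc*, 3.89-fold at *Hist1h2bl* and *Hist1h2ai*, 3.64-fold at *Hist1h1c*, a linker histone gene, 3.60-fold at *Hist1h2ae* and *Hist1h2bg*, and 3.53-fold at *Hist1h4j*. These peaks lay beside the starts more than over them, since 5 of the 31 genes had H3K27ac over the TSS base itself. Of the histone genes, 7.46% had it over the TSS base and 46.3% within 1 kb. The shares of all genes were 4.65 and 15.8%, so lying beside the start was usual there too. With a −log10 q of at least 5 asked for, 11 genes (16.4%) kept H3K27ac, against 8.25% of all genes. H3K4me1 was at 45 of 54 Hist1 genes and at every gene of the other clusters, with a median of 5.83-fold against 5.13 over all genes.

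Otx2 was at 37 of 54 Hist1 genes, 9 of 10 Hist2 genes, both Hist3 genes and *Hist4h4*, with a median of 3.58-fold against 3.92 over all genes with a peak. The highest value was at *Hist1h4c*, an H4 gene of run 3, at 8.46-fold in a peak of 2153 bases (−log10 q of 44.5), whose summit lies upstream, at -892 bases from the TSS. *Hist1h2ag* and *Hist1h2bj* had 5.49-fold, *Hist1h2ac* and *Hist1h2bc* had 5.21-fold, *Hist1h2bl* and *Hist1h2ai* had 4.90-fold, and *Hist1h2bm* had 3.97-fold. *Hist1h2bm* thus combined the second lowest H3K4me3 of Hist1 with Otx2 near the all-gene median. The 8 histone genes with H3K4me3 and no Otx2 were *Hist1h4k*, *Hist1h4f*, *Hist1h4d*, *Hist1h4b*, *Hist1h3i*, *Hist1h3b*, *Hist1h2ab* and *Hist2h3c1*, 4 of them H4 genes. By family Otx2 was at 7 of 13 H4 genes, 9 of 12 H3 genes and 4 of 6 H1 genes. It was at 14 of 18 H2A genes and 15 of 18 H2B genes, where a shared peak often counts for both neighbours. Of all protein-coding genes 47.0% had Otx2, and no difference between families was tested.

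The core of the sequence that Otx2 binds, TAATCC, was searched on both strands within 150 bases of each summit. It was there in 8 of the 44 distinct Otx2 peaks at histone genes (18.2%). Of the 10053 Otx2 peaks within 1 kb of any protein-coding start, 8.77% had it. It was in 23.3% of those farther away and in 18.3% of all. TAATCC holds more A and T than G and C. Among genes with Otx2, the median GC content of the promoter was 45.0% for histone genes and 61.0% for all genes. No share expected from base composition was computed, so its part in these shares was not tested. The strongest peak holds a match 87 bases from its summit, and the bases around that summit are shown with the match, which lies on the opposite strand, in capitals. They hold no annotated exon.
*Hist1h4c* Otx2 summit, GRCm38 chr13:23699236-23699456, minus strand: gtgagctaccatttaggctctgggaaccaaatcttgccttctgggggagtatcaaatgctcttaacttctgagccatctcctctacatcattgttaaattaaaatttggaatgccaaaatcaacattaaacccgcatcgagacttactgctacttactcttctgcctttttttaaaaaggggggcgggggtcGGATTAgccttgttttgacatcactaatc

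Neurod1 had no peak at any histone gene, in any cluster, under any setting tried. The nearest Neurod1 peak was 34.3 kb from a histone gene start, at *Hist3h2ba*, and the median distance was 488 kb, against 178 kb over all genes. The Neurod1 list was the shortest of the 5, and at 4.23% of all genes an absence from 67 clustered genes is a small difference in count.

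Among the histone genes were 13 head-to-head pairs, divergent neighbours whose starts lie 176 to 660 bases apart with a median of 268. Of these, 12 joined an H2A and an H2B gene, and *Hist1h2bh* and *Hist1h3f* joined an H2B and an H3 gene. In 10 pairs both genes shared an H3K4me3 peak, and in 8 that peak covered both starts. The same 10 pairs shared an Otx2 peak, and 6 of them shared H3K27ac. The 3 pairs with none were the 2 of the inverted repeat and the testis-specific pair. No H3K27ac summit lay between the starts of any pair, whereas 4 pairs had an Otx2 summit there and 4 had an H3K4me3 summit there.

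The stretches between the starts of 4 pairs are shown to set a marked Hist1 pair, the Hist2 pair and a second marked Hist1 pair beside the unmarked repeated pair. Capitals mark the TATA box TATAAA, the CCAAT box and the octamer, whose letters are ATTTGCAT, on either strand. All are given in GRCm38 on the plus strand.
*Hist1h2ac*/*Hist1h2bc*, chr13:23683949-23684198, H3K4me3 12.3-fold and Otx2 5.21-fold: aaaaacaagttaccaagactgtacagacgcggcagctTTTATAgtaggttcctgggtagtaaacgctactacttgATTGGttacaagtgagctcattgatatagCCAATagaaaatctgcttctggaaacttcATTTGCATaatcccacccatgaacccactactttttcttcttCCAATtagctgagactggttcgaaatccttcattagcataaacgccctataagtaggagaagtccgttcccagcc
*Hist2h2ac*/*Hist2h2be*, chr3:96220881-96221118, H3K4me3 26-fold and Otx2 4.08-fold: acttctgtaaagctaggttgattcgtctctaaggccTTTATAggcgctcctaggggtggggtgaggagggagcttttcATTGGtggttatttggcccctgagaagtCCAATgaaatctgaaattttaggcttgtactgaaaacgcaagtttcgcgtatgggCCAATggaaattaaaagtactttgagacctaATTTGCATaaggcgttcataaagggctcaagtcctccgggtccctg
*Hist1h2ag*/*Hist1h2bj*, chr13:22042945-22043213, H3K4me3 7.75-fold and Otx2 5.49-fold: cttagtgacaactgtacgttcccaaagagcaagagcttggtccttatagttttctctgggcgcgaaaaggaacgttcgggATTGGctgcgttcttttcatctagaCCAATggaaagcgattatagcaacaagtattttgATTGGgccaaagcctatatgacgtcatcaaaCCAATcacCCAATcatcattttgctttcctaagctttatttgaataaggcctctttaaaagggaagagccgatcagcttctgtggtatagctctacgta
*Hist1h2bq*/*Hist1h2ao*, chr13:21810198-21810464, no peak of any target: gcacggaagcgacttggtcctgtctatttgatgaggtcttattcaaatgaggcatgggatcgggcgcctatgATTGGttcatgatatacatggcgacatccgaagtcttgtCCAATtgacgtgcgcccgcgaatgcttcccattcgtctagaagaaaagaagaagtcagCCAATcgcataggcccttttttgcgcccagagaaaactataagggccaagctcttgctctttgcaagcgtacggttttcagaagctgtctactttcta

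The first 2 stretches each hold 3 CCAAT boxes, 1 TATA box and 1 octamer. The other two hold 5 and 3 CCAAT boxes with neither of the other motifs. The repeated pair without peaks thus holds as many CCAAT boxes as the first 2. In *Hist1h2ac*/*Hist1h2bc* the octamer shares 1 base with a TAATCC that lies 124 bases from the summit of the pair's Otx2 peak.

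Over the window from 250 bases before to 50 after the TSS, searched on both strands, the histone promoters differed from all promoters in these motifs. TATAAA was in 55.2% of histone promoters and 12.6% of all. CCAAT, the site of NF-Y, was in 83.6% and 39.0%, in every H2A and H2B promoter but in 4 of 13 H4 promoters. ATTTGCAT, the octamer known to bind Oct-1 in H2B promoters, was in 22.4% and 1.57%, in 7 H2A and 8 H2B genes and in none of the H1, H3 and H4 genes. The windows of close head-to-head pairs overlap, so the same site can be counted for both genes. The octamer between *Hist1h2ac* and *Hist1h2bc* is such a site, so these shares are not of separate sites. Of the 10 genes without H3K4me3, 5 held TATAAA, 7 held CCAAT and 2 held ATTTGCAT. TAATCC was in 7.46% of histone promoters and 7.48% of all, and CAGATG, the E-box that Neurod1 prefers, was in 7.46% and 15.2%. The histone promoters had a lower median GC content, at 45.3% against 55.0%, and the same median of 11.0 CpG sites.

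The placement of the marks around the start also differed. Among genes with H3K4me3, H3K4me3 peaks covered the TSS base of 78.9% of histone genes and of 89.1% of all genes. At 1000 bases before the start they covered 47.4 and 15.7%. Otx2 peaks covered the base 300 bases before the start in 61.4% of histone genes and 53.9% of all, but the base 300 bases after it in 29.8 and 57.0%. H3K27ac was most frequent at histone genes upstream, with 21.1% covered at 700 bases before the start against 6.02% of all genes. Neighbouring histone genes contribute peaks to these flanks, as 76.1% have another within 2 kb, and their part was not tested.

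**Figure D5:**
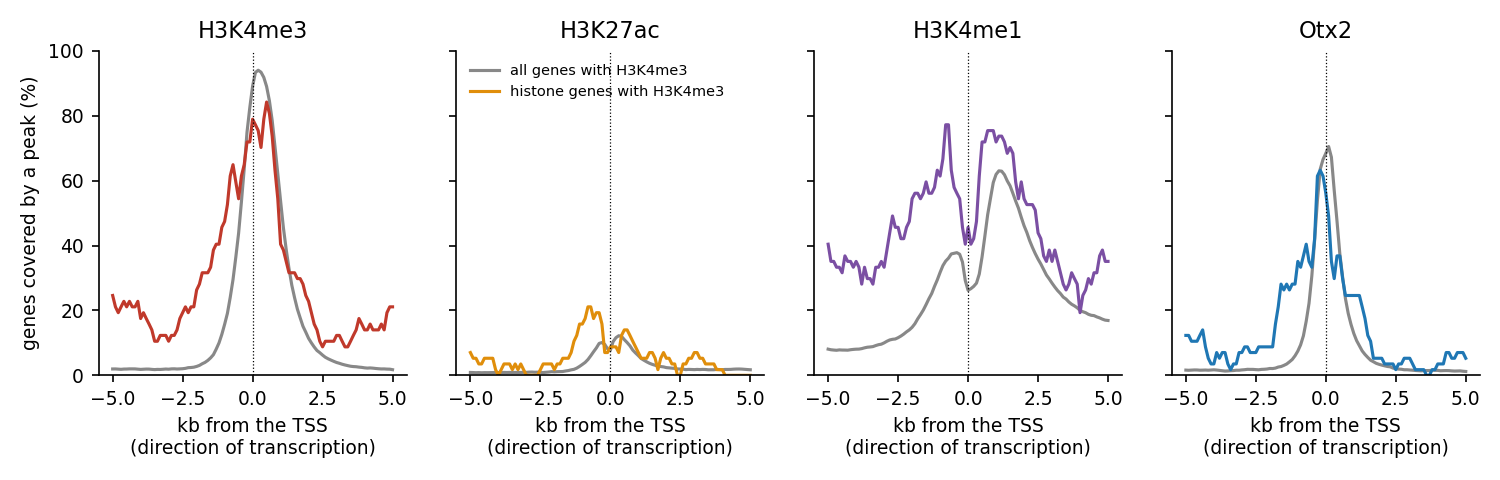
Percentage of genes covered by a peak at each position from 5 kb before to 5 kb after the TSS, in the direction of transcription, for the 57 histone genes with H3K4me3 (colour) and all 11554 genes with H3K4me3 (grey), in 1 panel per target. The coloured curves are higher than grey on the upstream side, for H3K4me3 at 47.4 against 15.7% at 1000 bases, and Otx2 is lower than grey just after the start, at 29.8 against 57.0% at 300 bases.

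Genes that make or process histone mRNA, which lie outside the clusters, mostly had H3K4me3 and Otx2 without H3K27ac. Of 16, 14 had H3K4me3 at a median of 18.7-fold, 13 had Otx2 and 1 had H3K27ac. Of all protein-coding genes with H3K4me3, 85.0% had Otx2 and 27.4% had H3K27ac, so the pattern is not particular to these genes. *Npat*, the coactivator that drives the histone loci in S phase, had 30.2-fold H3K4me3, *Slbp* had 19.9-fold H3K4me3 and 6.15-fold Otx2, and *Casp8ap2*, a partner of *Npat* in histone locus bodies, had 21.2-fold. *Coil* and *Zfp473* had no peak of any target within 1 kb of their annotated gene starts, and no other position in these genes was examined. Of 8 histone chaperones all had H3K4me3, at 12.2-fold at *Chaf1b* to 53.7-fold at *Nasp*, all had Otx2 and 2 had H3K27ac.

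Histone genes that are expressed outside S phase had a higher median H3K4me3 than those of Hist1, but the ranges overlapped. Of 11, 10 had H3K4me3, at a median of 41.4-fold, and 7 had H3K27ac, against 52.7 and 15.8% of all genes. The H3K4me3 values ran from 9.77-fold at *H2afj*, an H2A gene, and 12-fold at *Cenpa*, the histone H3 of centromeres, up to 82.1-fold at *H1f0*. *H3f3a*, which encodes H3.3, had 54.0-fold H3K4me3. *H3f3b* had no peak of any target within 1 kb of its annotated gene start, and no other position in the gene was examined. Of 10 histone genes of testis and oocyte, including *Hist1h1t*, *Hist1h2ba* and *Hist1h2aa*, 0 had a peak of any target. Of all genes, 34.9% had none. Neurod1 was at 4.23% of all genes, at 0 genes of these 4 lists and at 3 of the 12 retinal genes, *Crx*, *Neurod1* and *Nrl*.

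Within the span of Hist1 lie 49 other protein-coding genes, many of them vomeronasal receptor genes, which are used in the nose. Of these, 6 had H3K4me3 (12.2%), 3 had Otx2, 2 had H3K27ac and 41 had none of the 5 targets. The 3 highest were *Zfp184* at 35.5-fold, *Abt1* at 25.1-fold and *Zfp322a* at 19-fold, each above the 17-fold of *Hist1h1b*, the highest histone gene of the cluster. These genes were chosen after their values were seen.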

How the data were processed

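CUT&RUN was measured in P2 mouse retina. Per the labels, the authors trimmed reads with cutadapt 3.5 and Trim Galore 0.6.4, aligned them to GRCm38 with Bowtie2, removed those with a MAPQ of 30 or less with SAMtools 1.12 and deduplicated them with UMI-tools. Mitochondrial and blacklisted regions were left out of the mouse peaks. deepTools 3.5.1 is also named. The authors called peaks with MACS2 at a q-value of 0.05, treating the replicates of each antibody target as 1 sample and IgG as control. The deposited fold enrichment is a ratio of pooled signal to IgG, the deposited significance is a −log10 q-value, and the summit is an offset in bases. None was rescaled, and the 13LGS lists were not used here.

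A gene had a target when a peak shared at least 1 base with the 1 kb on each side of its TSS. Its value was the highest fold among such peaks, whose summits can lie outside that window. The H3K4me3 summit counted for *Hist1h2ad*, for example, lies at -3010 bases from its TSS. Python 3.11.15, numpy 2.4.6, pandas 2.3.3, pysam 0.24.0 and matplotlib 3.10.9 were used, with overlaps tested on simulated data against bedtools 2.31.1 (0 of 2000 genes differed). No test was run, since each list holds 1 value per peak. Repeated words were counted over the whole genome on both strands.

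The members and lists were chosen with earlier results of these data known. Named by rule were all genes of Hist2, Hist3, Hist4, and in Hist1 the 8 highest and 4 lowest for H3K4me3, those without it, the 8 highest for H3K27ac and for Otx2, and genes of the lists. Any other gene was named after its values were seen.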

Additional observations from a re-analysis of the deposited data

How the results depend on the processing

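No paired analysis was possible because each list pools the libraries of its target, and no replicate could be left out for the same reason. The 62 values recomputed under other settings stayed within 1.5 times the reported one in 49 cases. The exceptions follow. With overlapping windows merged into 1 locus, which was added once the values were known, H3K4me3 was at 34 loci, H3K4me1 at 35 and Otx2 at 28, as fewer places are counted. With 500 bp on each side of the TSS, H3K27ac was at 19 genes (28.4%), against 13.6% of all genes. With the peak over the TSS base, H3K27ac was at 5 genes (7.46%), against 4.65% of all genes. H3K4me1 was then at 26 (38.8%), against 22.0%, and Otx2 at 32 (47.8%), against 37.1%. The gap for Otx2 was thus smaller than with the 1 kb window. With a −log10 q of at least 5, H3K27ac was at 11 genes (16.4%), against 8.25% of all genes. H3K27ac with H3K4me3 was also at 11 (16.4%), against 7.50%. With every list limited to 4744 peaks, H3K4me3 was at 8 genes, H3K27ac at 1, H3K4me1 at 0 and Otx2 at 7, and the shares of H3K4me3, H3K27ac, H3K4me1 and Otx2 then fell under those of all genes. Leaving out genes with repeated sequence and centring on the first codon were added in the same way. Depth is unknown, so a missing peak does not show a missing mark.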
